A study of Mus musculus with 12 samples.

Results

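The genes described here encode the proteins of the cytosolic ribosome, followed across 12 RNA sequencing libraries of mouse splenic B cells. They were chosen by name and not by any measured value: protein-coding genes with the symbol Rpsa, Fau, Rplp0, Rplp1 or Rplp2, or with Rpl or Rps followed by a number and optionally a, x or al. The rule found 78 genes among the 43629 of the deposited count table, 31 for the small (40S) subunit and 47 for the large (60S) subunit, spread over 20 chromosomes. All 78 passed the filter on low counts in both comparisons. It misses Rps3a1, which also encodes a ribosomal protein and is given separately.

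Marginal zone (MZ) B cells sit at the edge of the splenic follicle and respond fast to blood-borne antigen, while follicular (FO) B cells recirculate. Per the labels, the groups were 4 libraries of MZ cells with the genotype Zfp36l1fl/flERT2cre/+ (deficient MZ, replicates 1, 2, 7 and 8), 4 of MZ cells with ERT2cre/ERT2cre (control MZ, replicates 3, 4, 5 and 6) and 4 of FO cells with Zfp36l1fl/fl cre- (replicates 3, 4, 7 and 8), all ex vivo and all given the strain Zfp36l1tm1.1Tnr. Both the floxed allele and the copies of ERT2cre thus differ between deficient and control MZ cells. Age, the agent that activated the recombinase and the animals behind the replicates were not found in the labels, so a p-value here reflects variation among libraries that may be technical only. The sort gates were B220+CD93+CD21hi CD23- for MZ and B220+CD93+CD21+CD23+ for FO cells. By the series' design text, a SMARTer kit with an RNA input of 5 ng and paired reads served for MZ cells, and a stranded TruSeq kit with single reads for FO cells, both at 100 bases, although SMARTer is the only kit in the protocol given for every sample. Cell type, kit, read layout, floxed allele and cre genotype therefore change together between MZ and FO, and their parts cannot be told apart.

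Each ribosome carries 1 copy of most of these proteins, so cells make them in near-equal amounts. Their mRNAs share a terminal oligopyrimidine (TOP) tract, a C followed by C and T bases at the very first position of the transcript, through which mTOR and the RNA-binding protein Larp1 set how much they are translated. The genes have also left many processed pseudogenes in the genome, whose sequence can be close enough to the parent mRNA to share reads with it. Zfp36l1, the protein removed in deficient cells, binds AU-rich elements in 3′ untranslated regions (UTRs) and speeds the decay of the mRNAs that hold them.

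The start of the transcript is shown for 8 genes, chosen after the sequences were seen, because it carries the feature that these mRNAs share. Each sequence is the gene's own strand from RefSeq (build GRCm38.p6), 10 bases before the annotated start to 20 bases from it, so the first base of the transcript is the eleventh letter, and capitals mark the unbroken run of C and T over it.
Rps6: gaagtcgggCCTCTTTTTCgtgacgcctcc
Rps18: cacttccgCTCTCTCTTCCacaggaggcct
Fau: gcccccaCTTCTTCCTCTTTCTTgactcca
Rpl15: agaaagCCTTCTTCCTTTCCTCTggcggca
Rpl28: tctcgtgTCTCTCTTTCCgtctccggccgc
Rpl35: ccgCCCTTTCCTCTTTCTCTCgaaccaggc
Rpl38: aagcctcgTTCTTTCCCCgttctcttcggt
Rplp2: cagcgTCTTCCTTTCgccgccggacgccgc
These windows lie at chr4:86857348-86857377 (minus strand, Rps6), chr17:33955646-33955675 (minus, Rps18), chr19:6057937-6057966 (plus, Fau), chr14:18270967-18270996 (minus, Rpl15), chr7:4792955-4792984 (plus, Rpl28), chr2:39005112-39005141 (minus, Rpl35), chr11:114668570-114668599 (plus, Rpl38) and chr7:141447641-141447670 (plus, Rplp2). Of the 58 ribosomal protein genes with a RefSeq start, 14 (24.1%) had a C at the annotated first base followed by at least 4 further C or T bases, against 813 of 27025 genes in all (3.01%). With the run allowed to begin within 10 bases of the annotated start the counts were 35 of 58 (60.3%) and 34.4% of all genes. Only the gene's own strand was searched, and a match describes these letters and not a site.

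The other sequence of interest is TATTTAT, a heptamer bound by Zfp36l1 and its relatives. In the longest annotated 3′ UTR of each gene, it was found in 2 of the 78 ribosomal protein genes (2.56%), against 3329 of 11445 tested genes with a 3′ UTR (29.1%). Their 3′ UTRs are also short, with a median of 149 bases against 1131 bases for all tested genes. The first matches in the 2 genes, both on chromosome 7 (GRCm38, GENCODE M21 transcripts), are shown with the heptamer in capitals.
Rps15a: gattatggtttTATTTATgactatggtga
Rps16: gcttgcttgctTATTTATttatttatttt

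The libraries held 28938453 to 40664963 counts. Zfp36l1 itself stood at 22.0, 31.9, 28.1 and 37.5 CPM (counts scaled to 1000000 per library) in deficient MZ replicates 1, 2, 7 and 8, against 116, 109.6, 118 and 126 CPM in control MZ replicates 3, 4, 5 and 6, so the counts go with the genotype labels. It had 352 to 396 CPM in FO libraries, and 55.9% of its exon bases lie under the opposite-strand transcript Gm26669, which was at 1.11 to 8.26 CPM in all libraries. All 5 B cell markers were detected in each group, and the MZ markers (Cr2, Cd1d1, S1pr3, Dtx1 and Mzb1) summed to 6681 to 7102 CPM in deficient MZ, 7539 to 7866 CPM in control MZ and 1539 to 1901 CPM in FO libraries. Cr2 was set by the sort. Marker lists of T cells, macrophages, erythroid cells, platelets and dendritic cells each summed to at most 29.1 CPM in any library. The plasma cell list was higher, with sums of 124 to 143 CPM in deficient MZ, 179 to 192 CPM in control MZ and 206 to 235 CPM in FO libraries. Its part in the values below was not tested.

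Ribosomal protein mRNAs took up a much smaller share of the counts in MZ than in FO libraries, and nearly the same share with and without Zfp36l1. They made up 3.74%, 3.04%, 2.94% and 3.15% of all counts in deficient MZ replicates 1, 2, 7 and 8, and 2.90%, 2.87%, 3.24% and 2.73% in control MZ replicates 3, 4, 5 and 6. In FO replicates 3, 4, 7 and 8 the shares were 7.34%, 7.32%, 7.06% and 7.01%. The groups average 3.22 ± 0.358%, 2.94 ± 0.215% and 7.18 ± 0.172% (SD, n = 4 each, in the order deficient MZ, control MZ, FO). The 2 MZ groups overlap, and no MZ library comes near an FO library. The small subunit genes held 1.19% to 1.53% of counts in deficient MZ, 1.11% to 1.35% in control MZ and 3.19% to 3.40% in FO libraries. In these bulk samples, fewer cells of a type and less RNA per cell cannot be told apart.

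**Figure D1:**
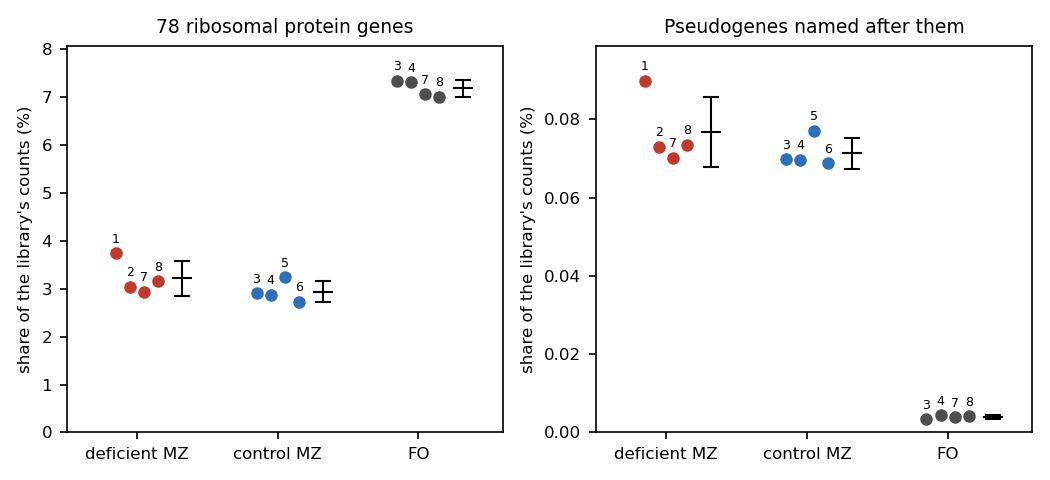
Share of each library's counts (%) held by the 78 ribosomal protein genes (left) and by pseudogenes named after them (right), with 1 point per library numbered by replicate, and the mean and SD of 4 libraries beside each group. The genes hold 2.94% to 3.74% in deficient MZ, 2.73% to 3.24% in control MZ and 7.01% to 7.34% in FO libraries, while the pseudogenes hold 0.0702% to 0.0899%, 0.0687% to 0.0771% and 0.00339% to 0.00435%.

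Although the proteins are made in near-equal amounts, the counts per gene were far from equal. Scaled per kilobase of merged exon, levels had a median of 163.9 CPM per kb in deficient MZ, 136 in control MZ and 481 in FO libraries, with a coefficient of variation across the 78 genes of 97.5%, 95.2% and 82.5%. Merged exons join all annotated transcripts of a gene and can be far longer than its main transcript. They span 3526 against 491 bases in Rpl35a and 2911 against 474 in Rpl22, but 499 bases by both measures in Rplp1. The part of this divisor in the spread and in the ranks below was not tested. By the mean over the 3 groups, the highest included Rplp1, an acidic protein of the stalk, Rps15 and Rpl32. Rplp1 averaged 766 ± 112 CPM per kb in deficient MZ, 748 ± 85.0 in control MZ and 3006 ± 92.9 in FO libraries (SD, n = 4 each). Rps15 averaged 336 ± 53.2 in deficient MZ, 308 ± 19.6 in control MZ and 2693 ± 71.1 CPM per kb in FO libraries. Rpl32 stood out from both, with 1172 ± 182, 920.2 ± 109 and 1182 ± 78.6 CPM per kb in the same order, so its 3 groups are close to each other.

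At the low end, Rpl24, a protein of the bridge between the subunits, had a level per length of only 4.06 ± 0.361 CPM per kb in deficient MZ, 4.12 ± 0.693 in control MZ and 3.14 ± 0.270 in FO libraries. By the mean over the 3 groups, Rpl36al, Rpl35a and Rpl22 came next, with 68.4, 80.5 and 82.1 CPM per kb. The merged exons of these genes are far longer than their main transcripts, so their low ranks depend on the length used. Within control MZ alone the next lowest were instead Rpl23a, Rpl21, Rps15a and Rpl29, with 6.32, 13.8, 22.6 and 27.6 CPM per kb, against 1087, 537, 273 and 234 CPM per kb in FO libraries. Of the exon bases of Rpl24 (chr16:55966275-55971435, GRCm38), 47.0% lie under the same-strand transcript Gm28037, which had no count in any library, and 75.8% of its 100-base windows occur unchanged in a transcript of another locus. The order of levels was nearly the same in deficient and control MZ (Spearman rho 0.997 over 78 genes, as a description) and less so in control MZ and FO (rho 0.679). The genes of each such pair share their lengths and sequence, and, within a cell type, the kit.

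Removal of Zfp36l1 went with at most a small rise of these genes, and Rpl5 was the only one that passed the test. Of all 13987 genes tested, 321 were higher in deficient MZ, or 2.29%, and 196 were lower, or 1.4%, 3.7% in either direction (edgeR quasi-likelihood, adjusted p under 0.05). Among the 78 ribosomal protein genes, 1 was called higher and 0 lower. At an unadjusted p under 0.05, 18 were higher and 0 lower, against 9.39% and 9.83% of all genes, and the DESeq2 Wald test called 2 higher (Rpl5 and Rpl32) and 0 lower. The log2 fold changes were positive for 76 of 78, with a median of 0.16, against −0.004 for all genes tested. Of the 543 tested genes whose level is at or above the genes' median level, 66.9% were positive, with a median of 0.07. These 543 include the ribosomal protein genes at or above that level. By subunit, the small subunit genes had a median of 0.12 (0 higher and 0 lower of 31, with 6 higher and 0 lower at an unadjusted p under 0.05, and none by DESeq2) and the large subunit genes 0.16 (1 higher and 0 lower of 47).

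**Figure D2:**
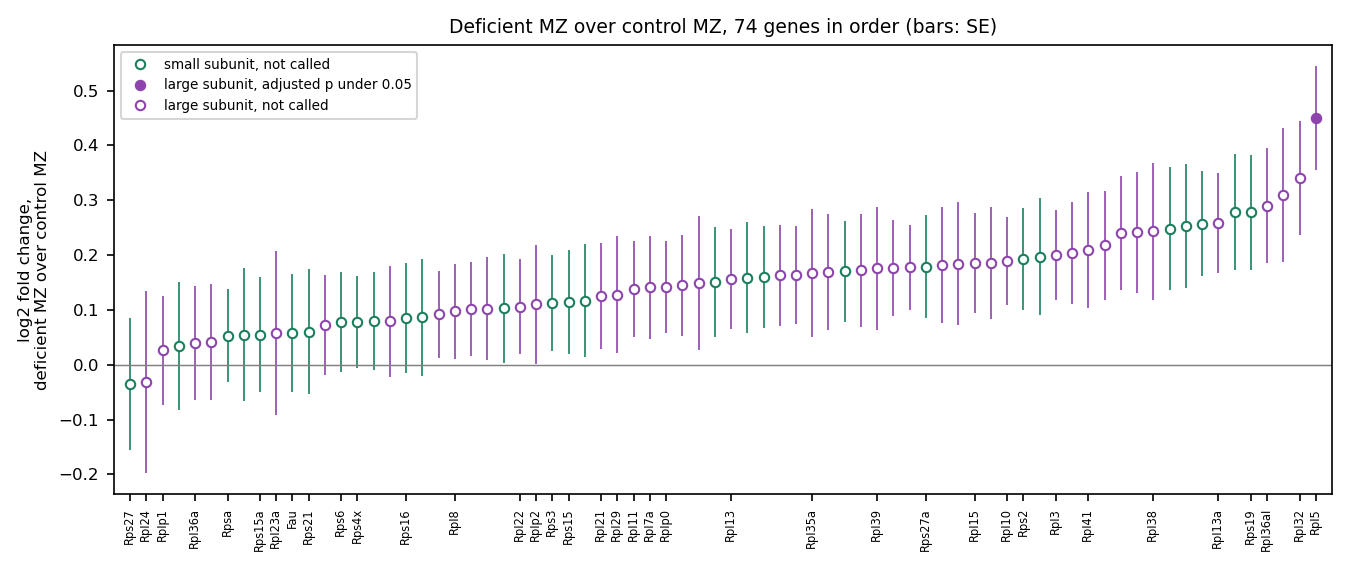
Log2 fold change of deficient MZ over control MZ (vertical axis) with its SE for 74 of the 78 genes, in order of size, coloured by subunit, with genes named in the text labelled. Values run from −0.04 (Rps27) to 0.45 (Rpl5), and Rpl5 is the single filled point, the only one with an adjusted p under 0.05.

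Rpl5 and Rpl11 carry the 5S ribosomal RNA into the large subunit and, when left unassembled, bind and inhibit Mdm2, the regulator of p53. Rpl5 (ENSMUSG00000058558, chr5:107900502-107909005, plus strand) stood at 406, 310.0, 287 and 309.7 CPM in deficient MZ replicates 1, 2, 7 and 8. Control MZ replicates 3, 4, 5 and 6 had 246, 242, 247 and 218 CPM. All deficient libraries lie above all control libraries, which was the case for 883 of 13987 genes (6.31%) and for Rpl5 alone among the 78. The opposite order held for 5.58% of genes and for 0 of the 78. The log2 value of deficient over control MZ was 0.45 with an SE of 0.095 (adjusted p = 0.0177 by edgeR). It held without deficient MZ replicate 1 (log2 0.34, edgeR adjusted p = 0.0112), and was no longer called without control MZ replicate 4 (log2 0.46, edgeR adjusted p = 0.0501) or without control MZ replicate 6 (log2 0.41, edgeR adjusted p = 0.0624). In the authors' deposited table, Rpl5 has a log2 fold change of 0.40 and an adjusted p of 0.000677.

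A neighbour moved with Rpl5. Of the exon bases of Rpl5, 24.3% lie under exons of Fam69a on the opposite strand. Fam69a was at 80.6 to 94.4 CPM in deficient MZ and 39.1 to 59.8 CPM in control MZ libraries, a log2 fold change of 0.74 (edgeR quasi-likelihood, adjusted p = 0.00366). No source used here says whether counting used strand, so reads of the 2 genes cannot be told apart where they overlap, and the part of Fam69a in the Rpl5 value was not tested.

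Rpl11, the partner of Rpl5 in the 5S particle, was not called. It had 377, 306, 291 and 313 CPM in deficient MZ replicates 1, 2, 7 and 8, and 279, 276, 334 and 272 CPM in control MZ replicates 3, 4, 5 and 6. The groups overlap through control MZ replicate 5 (log2 0.14, SE 0.088; edgeR quasi-likelihood, adjusted p = 0.414). p53 itself (Trp53) had 222.4 to 261 CPM in deficient MZ and 205 to 221.9 CPM in control MZ libraries (log2 0.15, edgeR adjusted p = 0.239).

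Rpl32, Rpl13a and Rpl36al were among the genes with the next smallest p-values, and none of them was called. Rpl32 had 1386, 1018, 1016 and 1095 CPM in deficient MZ replicates 1, 2, 7 and 8, against 887, 839, 1032 and 787 CPM in control MZ replicates 3, 4, 5 and 6. Control MZ replicate 5 reaches into the deficient range (log2 0.34, SE 0.103; edgeR adjusted p = 0.0865). None of the windows of 100 bases along its transcript occurs at another locus. Of its exon bases, 14.5% lie under the same-strand snoRNA gene Snora7a and 5.5% under the opposite-strand gene Cand2. Rpl13a, which in human cells also leaves the ribosome to silence inflammatory mRNAs, had 913, 689.6, 676 and 768 CPM in deficient MZ and 618, 618, 703 and 592 CPM in control MZ libraries (log2 0.26, SE 0.092; edgeR adjusted p = 0.14). Rpl36al, a second copy of Rpl36a without the usual introns of the family, had 115, 93.4, 80.5 and 89.5 CPM in deficient MZ and 76.5, 74.1, 89.4 and 67.3 CPM in control MZ libraries (log2 0.29, SE 0.105; edgeR adjusted p = 0.146). Same-strand exons of other genes lie over 35.4% of the exon bases of Rpl13a and 24.5% of those of Rpl36al. The part of these overlaps in the values was not tested. In each of these genes the highest deficient value came from replicate 1 and the highest control value from replicate 5.

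The 2 genes with TATTTAT in the 3′ UTR were not called. Rps15a had a log2 fold change of 0.06 (SE 0.105; edgeR adjusted p = 0.82) and Rps16 of 0.09 (SE 0.100; edgeR adjusted p = 0.689). Rps27, the gene with the lowest value of all 78, had 541, 406, 379 and 407 CPM in deficient MZ and 468, 425, 521 and 349.6 CPM in control MZ libraries (log2 −0.04, SE 0.121). Rps6, the target of S6 kinase, had a log2 fold change of 0.08 (SE 0.091; edgeR adjusted p = 0.689), and Rps19, the gene most often mutated in human Diamond-Blackfan anaemia, of 0.28 (SE 0.105; edgeR adjusted p = 0.163). The stalk genes Rplp0, Rplp1 and Rplp2, which recruit elongation factors, had 0.14, 0.03 and 0.11 (edgeR adjusted p = 0.382, 0.913 and 0.624).

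Within the MZ libraries the ribosomal protein genes moved as a block. Against each gene's mean over the 8 MZ libraries, on the log2(CPM + 0.5) scale, the median of the 78 genes was 0.35 in deficient MZ replicate 1, 0.01 in replicate 2, −0.08 in replicate 7 and 0.03 in replicate 8. In control MZ it was −0.10 in replicate 3, −0.12 in replicate 4, 0.12 in replicate 5 and −0.24 in replicate 6. All 78 genes were above their mean in deficient MZ replicate 1, 77 in control MZ replicate 5, and 0 in control MZ replicate 6. The median over all genes tested is held near 0 by the scaling and does not bear on these shifts. Other genes of translation shifted with them, to differing degrees. In all 8 MZ libraries, the medians of the other TOP and elongation genes and of the mitochondrial ribosomal protein genes had the sign of that of the 78 genes. The median of the ribosome biogenesis genes did so in all but control MZ replicate 6. In control MZ replicate 5 these lists had 0.10, 0.06 and 0.02, where the 78 genes had 0.12. In deficient MZ replicate 1 the median was 0.30 for the other TOP and elongation genes, 0.25 for mitochondrial ribosomal protein genes and 0.13 for ribosome biogenesis genes. In deficient MZ replicate 2 the same lists had 0.03, 0.03 and 0.12, where the 78 genes had 0.01. In control MZ replicate 6 they had −0.08, −0.06 and 0.002, where the 78 genes had −0.24. Leaving out deficient MZ replicate 1 brought the median fold change of the 78 genes to 0.06, with 59 positive, and leaving out control MZ replicate 6 brought it to 0.10, with 69 positive. Markers of FO cells differed between the groups as well. Klf2, a transcription factor of recirculating cells, was at 150.1, 150.5, 153 and 139.8 CPM in deficient MZ replicates 1, 2, 7 and 8, against 33.2, 36.1, 49.2 and 43.2 CPM in control MZ replicates 3, 4, 5 and 6 (log2 1.87, SE 0.103; edgeR adjusted p = 1.64e-07), and at 193 to 210.0 CPM in FO libraries. Ccr7, a chemokine receptor, was at 163, 138.5, 134.7 and 130.1 CPM in deficient MZ and 103.8, 105.8, 122.9 and 105.2 CPM in control MZ libraries (log2 0.36, SE 0.081; edgeR adjusted p = 0.0238), and at 165 to 202 CPM in FO libraries. The MZ groups do not overlap in either gene, while Fcer2a, which the sort gate sets, was not called (log2 −0.21, SE 0.235; edgeR adjusted p = 0.668). Of other cells, the erythroid list summed to 7.21 to 24.95 CPM in deficient MZ (24.95 in replicate 1) and 1.19 to 10.75 CPM in control MZ libraries (10.75 in replicate 5), with no marker at 0 over a group, and the T cell list to 2.07 to 4.57 CPM in deficient MZ and 0.742 to 0.884 CPM in control MZ, with 2 of 6 markers at 0 in control MZ. Their part in these values was not tested.

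**Figure D3:**
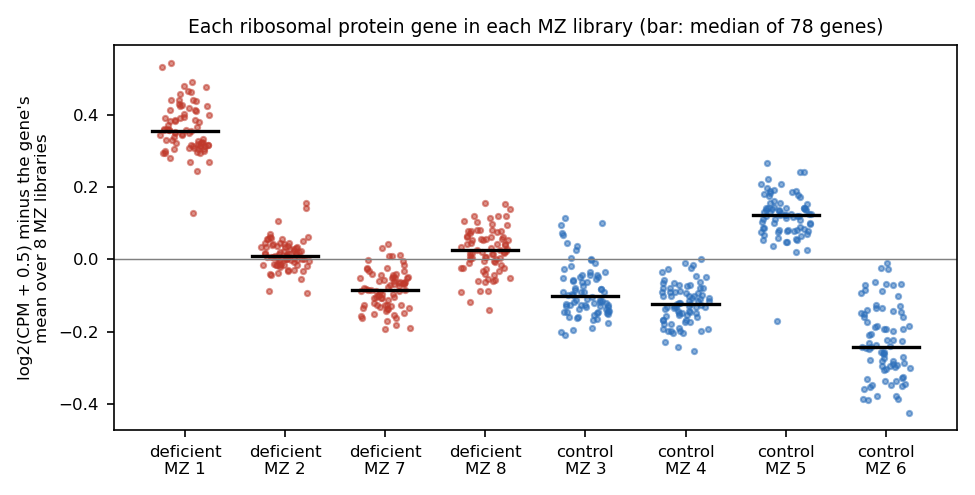
Log2(CPM + 0.5) of each of the 78 genes minus that gene's mean over the 8 MZ libraries (vertical axis), 1 point per gene, for deficient MZ (red) and control MZ (blue) libraries, with the median as a bar. Medians run from 0.35 in deficient MZ replicate 1 to −0.24 in control MZ replicate 6, and the libraries of both groups overlap.

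Between MZ and FO cells the difference was large and nearly uniform in direction: 75 of the 78 genes were lower in control MZ cells. Of all 13843 genes tested, 5374 were lower in control MZ, or 38.8%, and 5904 were higher, or 42.6%, 81.5% in either direction (edgeR quasi-likelihood, adjusted p under 0.05). Among the 78 genes, 75 were called lower, 2 higher (Rpl13 and Rpl24) and 1 was not called. All 31 small subunit genes were lower (median log2 −1.62), and of the 47 large subunit genes 44 were (median −1.69). The same 75 genes were lower in every control MZ library than in any FO library, which was the case for 37.2% of all genes tested. Rpl13 alone was higher in every control MZ library, which was the case for 39.7% of all genes. The median log2 fold change of the 78 was −1.68, against 0.05 for all genes tested and −0.54 for the 201 genes at or above the genes' own median level. Those 201 include the ribosomal protein genes at or above that level, so they are no separate background. At least a 2-fold lower level was seen for 64 genes, at least 4-fold for 30 and at least 8-fold for 8. With library totals in place of TMM scaling the split over all genes moved to 7613 higher and 3948 lower and the median of all genes to 0.38. The median of the 78 genes was then −1.36 (3 higher, 71 lower), and its difference from the median of all genes, −1.73, is one that scaling cannot change. The authors' deposited table lists, of the 78 genes, 75 as lower and 2 as higher at an adjusted p under 0.05, with a median log2 of −1.68. Both comparisons use the same control MZ libraries.

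**Figure D4:**
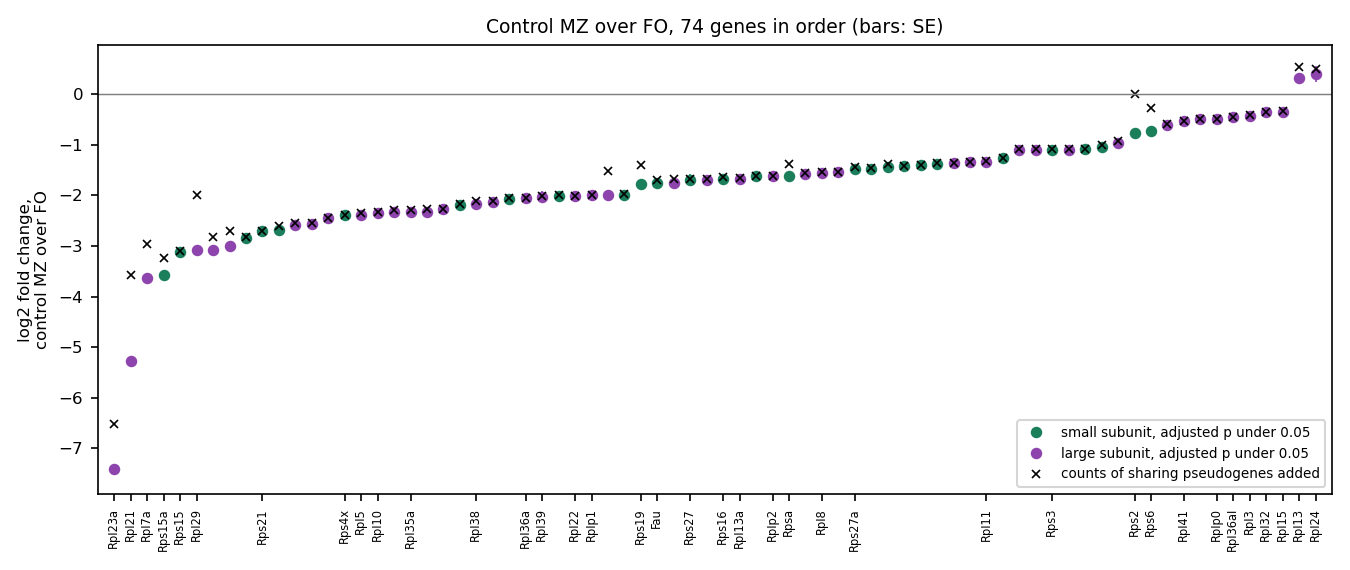
Log2 fold change of control MZ over FO (vertical axis) with its SE, hidden by most points, for 74 of the 78 genes in order of size, coloured by subunit, with genes named in the text labelled, and the same value after counts of pseudogenes that share sequence were added (crosses). Values run from −7.41 (Rpl23a) to 0.40 (Rpl24), and the crosses lie clearly above the points for Rpl21, Rpl29, Rpl23a, Rps2 and Rpl7a.

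The lowest value belonged to Rpl23a (chr11:78180932-78183584, minus strand), a protein beside the exit tunnel of the ribosome. It had 5.76, 4.69, 5.81 and 5.17 CPM in control MZ replicates 3, 4, 5 and 6, against 926, 969.8, 888 and 897 CPM in FO replicates 3, 4, 7 and 8, a log2 fold change of −7.41 (SE 0.082; edgeR adjusted p = 3.93e-14). Deficient MZ libraries, at 4.90 to 6.85 CPM, were as low. Of its exon bases, 59.7% lie under the opposite-strand gene Tlcd1, which was itself at only 1.24 to 1.77 CPM in control MZ and 3.26 to 4.83 CPM in FO libraries, and 80.0% of its windows occur unchanged at another locus. The part of these features in the value was not tested.

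Rpl21 followed, with 45.6, 44.4, 56.0 and 41.2 CPM in control MZ and 1912, 1796, 1807 and 1790 CPM in FO libraries (log2 −5.28, SE 0.095). It has many copies, with 39 pseudogenes that share a 100-base window. Rpl7a, at 62.9 to 77.8 CPM in control MZ and 809 to 932 CPM in FO libraries, had a log2 fold change of −3.64 and shares windows with 37 pseudogenes. Rps15a, at 121 to 168 CPM in control MZ and 1573 to 1900 CPM in FO libraries, had −3.58, and 3.06% of the windows of its long main transcript of 5130 bases are shared. That share is low beside a longest annotated 3′ UTR of 4731 bases, and does not mean that the gene has few copies. Pseudogenes that share its windows averaged 37.4 CPM in control MZ, against 142 CPM for Rps15a. With their counts added its log2 fold change was −3.24. Rps15, whose windows are 10.2% shared, was at 197, 192, 209 and 179 CPM in control MZ and 1748, 1714, 1678 and 1645 CPM in FO libraries (log2 −3.12, SE 0.061). The edgeR adjusted p of these 4 genes was at most 1.74e-11.

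At the other end stood 2 large subunit genes. Rpl13 had 662, 651, 787 and 685 CPM in control MZ replicates 3, 4, 5 and 6, and 573, 570.4, 552 and 556 CPM in FO replicates 3, 4, 7 and 8. Its groups do not overlap, and it was higher in control MZ (log2 0.32, SE 0.060; edgeR quasi-likelihood, adjusted p = 0.000343), with 78.8% of its windows shared. Rpl24, at 3.37 to 5.04 CPM in control MZ and 2.89 to 3.48 CPM in FO libraries, was also called higher (log2 0.40, SE 0.161; edgeR adjusted p = 0.0356), but its groups overlap and the call was lost without 5 of the 8 libraries in turn (control MZ replicates 3 and 5 and FO replicates 4, 7 and 8). The smallest called decreases were those of Rpl15, Rpl32 and Rpl3 (log2 −0.35, −0.35 and −0.43), and with library totals none of these 3 was called.

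The named functional groups followed the general fall to different degrees. Rpl5 was at 246, 242, 247 and 218 CPM in control MZ and 1278, 1279, 1230 and 1204 CPM in FO libraries (log2 −2.38, SE 0.058), and its partner Rpl11 had a log2 fold change of −1.34 (SE 0.064). In the stalk, Rplp1 fell most (log2 −1.998), then Rplp2 (−1.61), while Rplp0, the protein that anchors both to the ribosome, fell by 0.48 on the log2 scale. Rplp0 was at 1033, 1064, 1235 and 1160 CPM in control MZ and 1579, 1704, 1536 and 1504 CPM in FO libraries. Rps6 had −0.73, Rps19 −1.77, Rpsa −1.61 and the X-linked Rps4x −2.39. Rps27a and Fau, whose proteins are made fused to ubiquitin and to a ubiquitin-like domain, had −1.48 and −1.76. Among the late or specialised proteins of the large subunit, Rpl10 had −2.34, Rpl22 −2.01, Rpl38 −2.17 and the very short Rpl41 −0.54. Rpl36a had −2.06 and its retrogene copy Rpl36al −0.46. All of these passed the test (edgeR adjusted p at most 0.000145).

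Pseudogenes went the other way. Those named after a ribosomal protein gene held 0.0697%, 0.0696%, 0.0771% and 0.0687% of counts in control MZ replicates 3, 4, 5 and 6, and 0.00339%, 0.00435%, 0.0039% and 0.00417% in FO replicates 3, 4, 7 and 8. Of the 64 tested, 49 were higher in control MZ and 9 lower, against 42.6% and 38.8% of all genes tested, with a median log2 fold change of 2.95. Rps6-ps4, for example, was at 147 to 177 CPM in control MZ and had no count in any FO library. Rps19-ps6 was at 123 to 149.7 CPM in control MZ and at 0 to 0.0843 CPM in FO libraries. Between deficient and control MZ, 0 of 66 pseudogenes were called in either direction (1 higher and 0 lower at an unadjusted p under 0.05, and 0 by DESeq2).

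The 352 annotated pseudogenes that share at least 1 window of 100 bases with a ribosomal protein gene summed to 1269 to 1501 CPM in control MZ and 84.2 to 105 CPM in FO libraries, whereas the 78 genes summed to 24990 to 30680 CPM in control MZ and 80140 to 85970 CPM in FO libraries. When the counts of each pseudogene were added to the gene it shares most windows with, a step chosen after the data were seen, 74 genes were lower and 2 higher, and the median moved to −1.61. Single genes moved far more: Rpl21 to −3.58, Rpl29 to −1.996, Rpl23a to −6.53 and Rpl7a to −2.95, while Rps2, whose value had been −0.76, was at 0.01 and was no longer called (edgeR adjusted p = 0.864). In deficient over control MZ the same step moved no gene by more than 0.0202 on the log2 scale. The step left out copies annotated as protein-coding, such as Rps27rt (98.4% of the windows of Rps27) and Rpl10-ps3 (91.6% of those of Rpl10). Any reads set aside in counting because of several matches could not be returned either, so the step covers shared reads only in part.

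The share of windows found at another locus ran from 0% to 98.4% with a median of 36.8%, and 5 genes had none. It is taken over the whole main transcript, which is long in Rps15a and Rps20 (5130 and 3706 bases, with 3.06% and 5.9% shared). The Spearman rho of this share with the log2 fold change was −0.01 in control MZ over FO and 0.002 in deficient over control MZ (n = 78 genes of the same libraries, as descriptions). Of 22 such correlations, over 11 properties and 2 comparisons, the largest in size were −0.32 for the number of named pseudogenes in control MZ over FO and 0.31 for the share of exon bases under exons of another gene in deficient over control MZ. Rpl22, Rpl39, Rpl8, Rps21 and Rps3 share under 2% of windows with another locus and under 5% of exon bases with another gene, limits chosen after the values were seen. All 5 were lower in control MZ, with log2 fold changes of −2.01, −2.03, −1.55, −2.71 and −1.09.

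Genes of the same machinery separated into those that fell with the ribosomal proteins and those that did not. Of all genes tested, 38.8% were lower in control MZ and 42.6% higher, with a median log2 of 0.05. Of the 201 genes at or above the median level of the ribosomal protein genes, 125 were lower and 59 higher, with a median of −0.54. Ribosomal protein genes at or above that level are among the 201. Of the 20 other TOP and elongation genes, 20 were lower in control MZ and 0 higher, with a median log2 of −0.87, and all 4 snoRNA host genes tested (Gas5, Snhg5, Snhg12 and Zfas1), several of which are TOP genes themselves, were lower, also with a median of −0.87. Rack1, a scaffold on the small subunit, was at 386, 385, 450.3 and 409 CPM in control MZ and 1686, 1866, 1718 and 1714 CPM in FO libraries (log2 −2.09, SE 0.064). Of the 42 ribosome biogenesis genes, by contrast, 28 were higher in control MZ and 9 lower (median 0.25), among them Nop56, a core protein of box C/D snoRNPs, at 271 to 299 CPM in control MZ and 196 to 208 CPM in FO libraries. Of 76 mitochondrial ribosomal protein genes, 50 were higher and 12 lower (median 0.40). Myc, a driver of ribosome production, was at 236, 228, 252 and 311 CPM in control MZ and 46.1, 56.3, 41.1 and 42.7 CPM in FO libraries (log2 2.48, SE 0.117; edgeR adjusted p = 1.35e-09). The difference between the lists was not tested. All 4 platelet markers were higher in control MZ, with sums of 10.6 to 18.2 CPM in control MZ and 3.25 to 3.99 CPM in FO libraries. Of the 7 macrophage markers 6 were higher in control MZ and 1, Adgre1, was lower (log2 −2.56). The macrophage sums overlap, at 16.01 to 20.8 CPM in control MZ and 6.66 to 22.6 CPM in FO libraries, the highest being FO replicate 4. No marker of either list was at 0 over a group, and their part in these values was not tested.

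Between deficient and control MZ, a few genes around the ribosome passed the test. Over all 13987 genes tested, edgeR called 2.29% higher and 1.4% lower. At an unadjusted p under 0.05 these shares were 9.39% and 9.83%. Myc was at 397, 522, 386 and 378 CPM in deficient MZ replicates 1, 2, 7 and 8, and at 236, 228, 252 and 311 CPM in control MZ replicates 3, 4, 5 and 6, without overlap (log2 0.70, SE 0.113; edgeR quasi-likelihood, adjusted p = 0.00341). By edgeR it was the only one called of 13 genes for the control of TOP translation and the outputs of the 5S particle, of which 4 were higher and 0 lower at an unadjusted p under 0.05, and 2 higher and 0 lower by DESeq2. Cdkn1a, a p53 target, had 3.31, 1.37, 1.30 and 1.09 CPM in deficient MZ and 0.841, 0.616, 1.15 and 0.918 CPM in control MZ libraries, with the highest value in deficient MZ replicate 1 (log2 0.99, SE 0.356; edgeR adjusted p = 0.144). Of the biogenesis genes 2 of 42 were called higher and 0 lower: Ebna1bp2, a large subunit assembly factor, at 85.2 to 108 CPM in deficient MZ and 68.2 to 76.1 CPM in control MZ (log2 0.39, edgeR adjusted p = 0.013), and Nop56, at 323 to 366 CPM in deficient MZ and 271 to 299 CPM in control MZ (log2 0.27, edgeR adjusted p = 0.0362). At an unadjusted p under 0.05, 10 of the biogenesis genes were higher and 1 lower, and DESeq2 called 2 higher and 0 lower. Of the snoRNA host genes, Zfas1 (log2 0.53, edgeR adjusted p = 0.0141) and Gas5 (log2 0.33, edgeR adjusted p = 0.0177) were higher. Hnrnpa1, an RNA-binding protein with a TOP mRNA, was the only one called of the 20 other TOP and elongation genes (log2 0.37, edgeR adjusted p = 0.0177), and their median was 0.14. Of these 20, 5 were higher and 0 lower at an unadjusted p under 0.05, and 2 higher and 0 lower by DESeq2. Among 76 mitochondrial ribosomal protein genes, 0 were called in either direction (13 higher and 0 lower at an unadjusted p under 0.05, and 3 higher by DESeq2), with a median of 0.09.

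**Figure D5:**
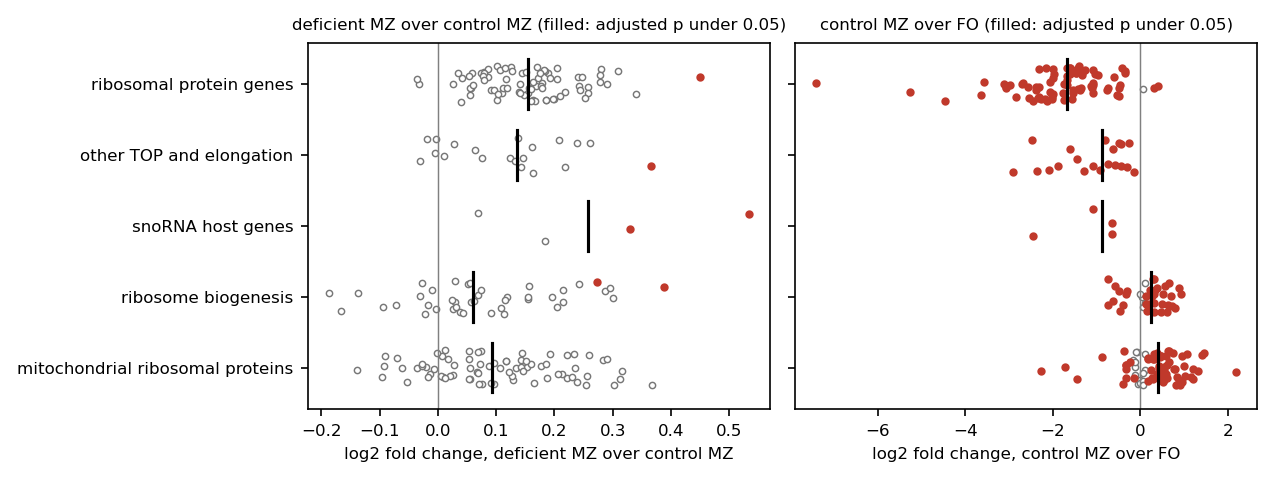
Log2 fold changes of deficient MZ over control MZ (left) and control MZ over FO (right), on horizontal axes of different range, with 1 point per gene, filled where the adjusted p is under 0.05, and the median of each list as a bar. On the right the medians are −1.68 for ribosomal protein genes, −0.87 for other TOP and elongation genes and for snoRNA host genes, 0.25 for biogenesis and 0.40 for mitochondrial ribosomal protein genes.

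Ribosomal protein genes and paralogues outside the naming rule moved in both directions. Rps3a1, at 815 to 971 CPM in control MZ and 1551 to 1648 CPM in FO libraries, was lower (log2 −0.87, SE 0.062), and so was Rpl22l1, the paralogue that can replace Rpl22, at 18.15 to 25.01 CPM in control MZ and 188 to 222 CPM in FO libraries (log2 −3.15, SE 0.098). Rpl7l1 (log2 0.84) and Rps27l, a p53-inducible relative of Rps27 (log2 1.05, at 33.6 to 46.5 CPM in control MZ and 18.2 to 20.4 CPM in FO libraries), were higher. Of the 7 tested, 3 were higher and 3 lower in control MZ, against 42.6% and 38.8% of all genes tested. In deficient over control MZ 0 were called (3 higher and 0 lower at an unadjusted p under 0.05, and 0 by DESeq2).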

How the data were processed

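The raw counts come, per the submitters' processing notes, from reads handled with tools listed there without roles: Trim Galore, TopHat2 (2.0.12), HTSeq and, for build GRCm38, also DESeq2 (1.10.1). Annotation release, strand setting and handling of reads with several matches were not found in any source used here. The deposited raw counts, whole numbers per Ensembl gene and library, were tested. The authors' 2 deposited tables give log2 fold changes and adjusted p-values from DESeq2, quoted only where named. Of 43629 IDs, 42548 matched GENCODE M21, which gave symbols, positions and transcripts.

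The main test was edgeR's (4.0.16, under R 4.3.3) quasi-likelihood F test at its defaults with TMM scaling, the default filter on low counts and Benjamini-Hochberg adjustment over all genes tested, on the 8 libraries of each comparison. CPM are TMM-scaled over all 12 libraries. SE is the size of the log2 fold change over the root of the F statistic. The procedure was tested on simulated counts. Of 1.5-fold changes, it recovered 70.2% in deficient against control MZ and 64.7% in control MZ against FO. No smaller change was simulated, while 75 of the 78 genes changed by less than 1.231-fold in deficient against control MZ. Alternatives were other scalings, the DESeq2 1.42.0 Wald test, no filter, all 12 libraries in 1 fit, a replicate block and leaving out each library. Adding pseudogene counts and a robust quasi-likelihood fit were chosen after seeing the data; the robust fit called 322 genes higher and 204 lower in deficient MZ, and made the same counts of calls among the 78 genes.

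Copies were sought as exact matches of 100-base windows of 1 main transcript per gene, the shortest of those best supported, a choice made after longer forms were seen, in annotated transcripts at other loci; the genome itself was not used. No 2 libraries were identical (0), and counts of replicate pairs differed beyond sampling noise in each case, with a chi-square of 5.78 to 48.6 a gene.

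Genes named are the 5 smallest p in deficient against control MZ, the 6 highest and 6 lowest in control MZ against FO, a list by role, the 4 highest and 4 lowest per kilobase, and up to 4 per list. Rps16, Rps2, Rpl29, Fam69a, Cand2, Snora7a, Tlcd1, Gm28037, Rpl39, Rpl8, Rps21 and Rps3 lie outside that rule. They were chosen after values or sequences were seen. Rpl22, the other gene with few copies, is named by the rule. Some genes that the rule names are not reported here. Members and lists were chosen with earlier results of these data known.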

Additional observations from a re-analysis of the deposited data

Results flagged for a closer look

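Among 99 sets of 4 libraries, 7 held a library whose gap to the nearest other exceeded Dixon's 95% limit, and chance alone gives about 1 in 20. The share of counts in pseudogenes named after ribosomal protein genes was 0.0899% in deficient MZ replicate 1, against 0.0702% to 0.0735% in the other deficient libraries, and 0.0771% in control MZ replicate 5, against 0.0687% to 0.0697% in the other controls. In deficient MZ replicate 1, Rpl21 stood at 58.95 CPM (48.6 to 49.3 CPM in the other 3). In control MZ replicate 5, Rpl11 stood at 333.5 CPM (272 to 279 CPM in the other 3) and Rps4x at 483 CPM (414 to 423 CPM). In FO libraries, Rpl21 stood at 1912 CPM in replicate 3 (1790 to 1807 CPM) and Rps4x at 2405 CPM in replicate 4 (2251 to 2274 CPM). The 5 values found in MZ libraries fall on the 2 libraries whose ribosomal protein genes were highest in their group.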

How the results depend on the processing

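Over 6 summary results (members called higher, called lower and their median, in each comparison) and their alternatives, 93 of 105 values kept the direction and stayed within 1.5 times the count or within the spread. In deficient against control MZ the spread allowed for the median was 0.191, more than the median of 0.16 itself. The median of 0.06 without deficient MZ replicate 1 thus counted as kept. No alternative called any of the 78 genes lower in that comparison, and each of these values counted too. In deficient against control MZ, the number called higher was 2 with the DESeq2 Wald test and 2 without a filter (Rpl5 and Rpl32), and 0 to 1 when each library was left out, 0 without control MZ replicate 4 or 6, where fewer samples were fitted. In control MZ against FO, the number called higher was 1 without a filter, 1 with the replicate block and 1 to 2 when each library was left out, and the median was −1.36 with library totals. Leaving out libraries gave medians of 0.06 to 0.22 in deficient against control MZ and −1.73 to −1.61 in control MZ against FO. Over all genes of deficient against control MZ, calls were 171 higher and 82 lower without control MZ replicate 4, 208 and 103 without control MZ replicate 6, 196 and 110 without control MZ replicate 3, 211 and 88 without deficient MZ replicate 8, 274 and 128 without control MZ replicate 5, 426 and 307 without a filter, 445 and 343 with 12 libraries in the fit, and 567 and 482 with DESeq2.

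Of 128 results of single genes, with 2232 values, 51 values lost the call, 25 gained it and 22 changed sign, all of genes not called in deficient against control MZ. Rpl22l1 was at −0.015 with library totals. When each library was left out, Fau ran from −0.060 to 0.13, Rpl22l1 from −0.082 to 0.058, Rpl23a from −0.047 to 0.12, Rpl24 from −0.13 to 0.058, Rpl36a from −0.054 to 0.11, Rplp1 from −0.075 to 0.10, Rplp2 from −0.010 to 0.18, Rps15a from −0.037 to 0.14, Rps27 from −0.16 to 0.050, Rps3a1 from −0.016 to 0.12, Rps6 from −0.017 to 0.14, Rpsa from −0.034 to 0.11 and Snhg12 from −0.033 to 0.14. The cause was not tested.

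No paired analysis was possible for deficient against control MZ because they share no replicate number. Control MZ and FO share numbers 3 and 4, whose libraries did not deviate together (r = −0.07 and −0.14 over 9021 genes), and the replicate block gave 1 higher and 75 lower of the 78 (median −1.73). In that fit only the libraries numbered 3 and 4 bear on the comparison, because every other number occurs in 1 of the groups only. The libraries that share a number carry different genotypes, so the block is no pairing by animal. Rpl23a and Rpl24, at 3.37 to 5.81 CPM in control MZ libraries, rest on the fewest counts.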
